A study of Rattus norvegicus with 6 samples.

Results

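The extracellular matrix genes examined here are the collagens, the laminin chains and the proteins that link or accompany them. They were taken by gene name from a table of rat pancreatic islet RNA: all collagen chains (Col followed by a type and a chain number), laminin chains (Lama, Lamb, Lamc), nidogens, fibrillins, Agrn, Fn1, Sparc and Hspg2. The rule found 52 genes among 18625 named genes. By the known structure of their products they comprise 9 fibrillar collagens, 17 basement membrane genes (6 collagens, 8 laminin chains, and the linkers Nid1, Nid2 and Agrn), 22 other collagens, and the glycoproteins Fn1, Fbn1, Fbn2 and Sparc. Of the known genes of these classes, 14 have no row and are not analysed here, among them Col1a2, Col2a1, Col15a1, Hspg2, Lama3 and Lama5.

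Freshly isolated islet cells were profiled by RNA sequencing in 3 postnatal libraries and in 3 fetal libraries from embryonic day 19. The postnatal libraries are all titled 2 weeks, but their age labels read postnatal week 2, 3 and 4 for replicates 1, 2 and 3. No strain, sex, genotype or treatment is given, and the replicates are not described as separate animals. The p-values therefore set the difference between groups against the scatter of these libraries, which may include technical and age differences. The stated purpose is to examine the transcriptome at both ages.

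Collagens are trimeric rods. Fibrillar collagens pack side by side into the cables of connective tissue, whereas type IV collagen forms a net that, with laminin and nidogen, builds the basement membrane, the sheet under epithelia and around capillaries. Laminin trimers hold 1 alpha, 1 beta and 1 gamma chain, and the choice of chains differs between tissues and ages. In mouse islets, the basement membrane that beta cells touch is laid down largely by endothelial cells, and fibrillar collagen comes mostly from fibroblasts and stellate cells.

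Levels are scaled CPM, CPM (read counts scaled to the size of the library) with a further scaling factor for each library. They rest on 28.2 to 29.5 M reads in the postnatal and 26.1 to 37.8 M reads in the fetal libraries, so that 3 reads were worth 0.102 to 0.152 scaled CPM in postnatal and 0.0726 to 0.0925 in fetal libraries. A gene is called when limma's Benjamini-Hochberg adjusted p over all 12926 genes tested is under 0.05, and log2 fold changes are postnatal over fetal on the log2(scaled CPM + 1) scale. That scale understates the change of low genes. Levels of different genes also depend on transcript length, so that ratios between genes or sums are compared between libraries only, and their size is not read as relative abundance. Of 18 islet endocrine markers, 16 (88.9%) were called higher after birth, against 30.0% of all genes tested. These markers took 4.27%, 6.82% and 11.6% of the reads in postnatal replicates 1, 2 and 3. In fetal replicates 1, 2 and 3 they took 0.564%, 0.719% and 0.283%. In every library this was less than the share of acinar enzyme genes. Acinar enzyme genes took 48.3%, 27.2% and 24.0% of the reads in postnatal replicates 1, 2 and 3, against 9.14%, 12.3% and 11.7% in fetal replicates 1, 2 and 3. Postnatal replicate 1 stood apart by that share. Fetal replicate 2 stood apart in liver transcripts, with 8095 scaled CPM over 10 genes against 299 and 377 in fetal replicates 1 and 3. Because these are bulk samples, fewer cells of a type and less RNA per cell cannot be told apart.

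Matrix genes were mostly higher after birth. All 52 passed the filter on low values, and 32 (61.5%) were called higher and 6 (11.5%) lower, where 30.0% of all genes tested were called higher and 33.1% lower. The median log2 fold change was 0.90 over the 52 genes and -0.026 over all genes tested. In 33 of them the postnatal libraries all lay above the fetal ones and in 8 all below, against 33.1% and 36.9% of all genes tested. With plain CPM, which makes no adjustment between libraries and moves the median of all genes to -0.36, the split was 21 higher and 8 lower. Leaving out both libraries that stood apart gave 33 and 7. With the 1 postnatal library labelled week 2 alone against the fetal libraries, it was 23 and 5, the lone sample being assumed to vary like the others. Col28a1 and Col19a1 reached a value of 1 in postnatal libraries only and Col26a1 in 1 postnatal and 3 fetal libraries, so that these genes passed the filter through the group in which they were high.

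**Figure D1:**
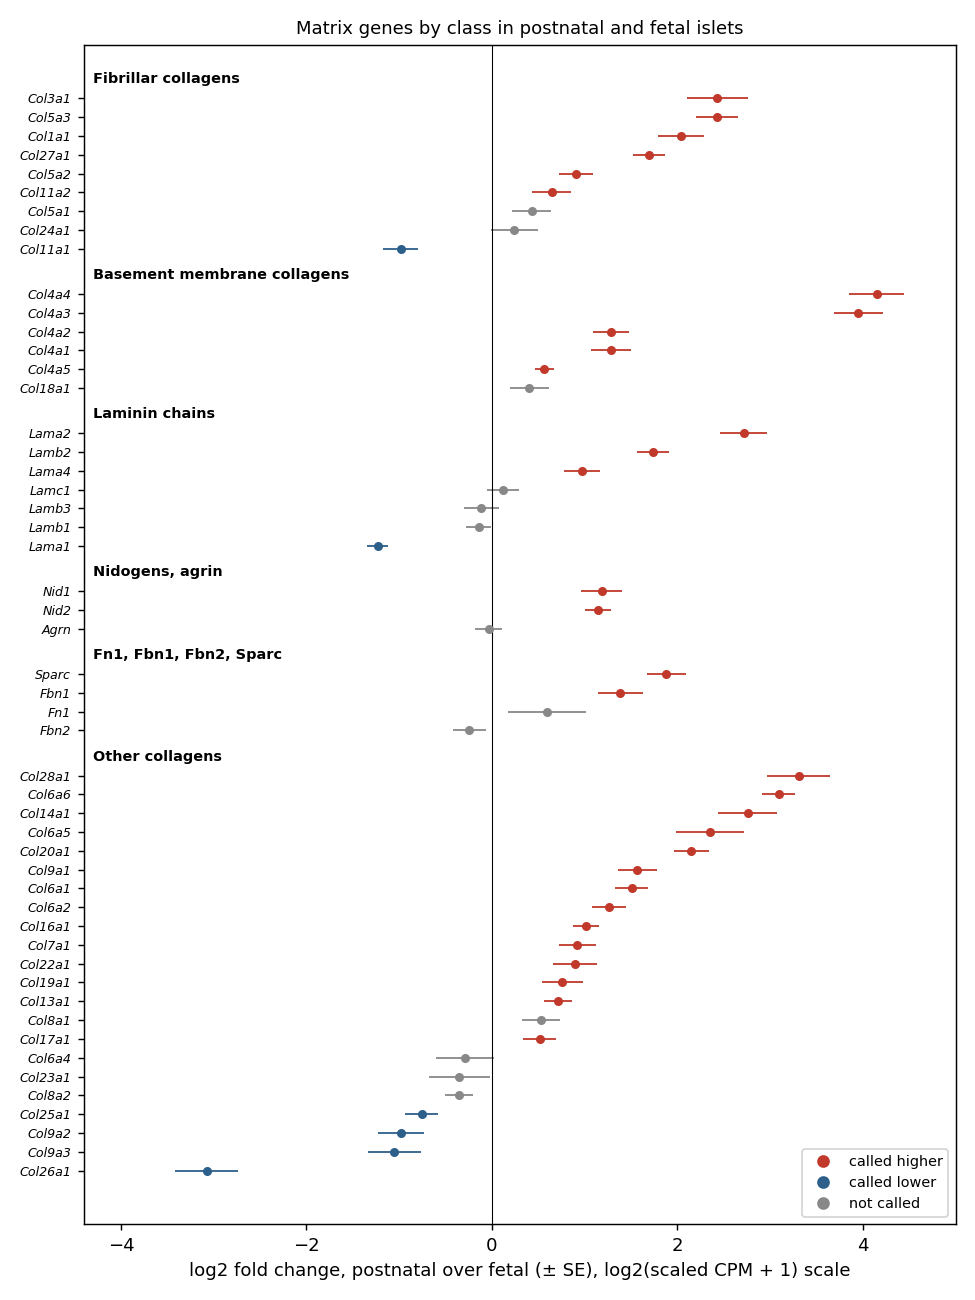
Log2 fold change, postnatal over fetal, with its standard error for 51 of the 52 matrix genes, grouped by class; red points were called higher, blue points lower and grey points were not called. At this pseudocount of 1, Col4a4 (4.15) and Col4a3 (3.95) lie at the high end and Col26a1 (-3.08) at the low end, while the laminin chains spread to both sides of 0.

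Fibrillar collagen genes rose in 6 of 9 cases (66.7%, against 30.0% of all genes tested), led by types III, I and V. Col3a1, whose product forms the thin fibrils of soft organs, had 5424, 9628 and 8158 scaled CPM in the postnatal libraries, against 1320, 1784 and 1154 scaled CPM in the fetal libraries. Col1a1, encoding the main chain of type I collagen, had 578, 1073 and 855 scaled CPM in the postnatal libraries and 219.6, 226 and 153 scaled CPM in the fetal ones. For both genes the groups did not overlap and postnatal replicate 1 was the lowest of its group. Col3a1 rose by a log2 fold change of 2.43 ± 0.33 (SE, adjusted p = 0.000515) and Col1a1 by 2.04 ± 0.25 (adjusted p = 0.000344). Within a library, Col3a1 had 9.38, 8.97 and 9.54 times the reads of Col1a1 in the postnatal and 6.01, 7.91 and 7.54 times in the fetal libraries, with no adjustment for length. That ratio was higher in all postnatal libraries (difference 0.39 on the log2 scale). The two-sided exact permutation p was 0.1, the smallest that 3 libraries against 3 allow, or 0.14 after adjustment over the 7 gene pairs compared.

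Type V and XI chains, which co-assemble with the major fibrils and set their width, did not move as one. Col5a3 rose by 2.43 ± 0.23, Col5a2 by 0.90 ± 0.18 and Col11a2 by 0.64 ± 0.21, whereas Col5a1 averaged 279 ± 72.7 scaled CPM in postnatal and 204 ± 32.9 scaled CPM in fetal libraries (SD, n = 3 each) and was not called (adjusted p = 0.108). Col5a1 was called higher without postnatal replicate 1 (adjusted p = 0.0155), without both libraries that stood apart (0.0195) and with DESeq2 (0.0493). The Col5a2 call ended with plain CPM (0.55, adjusted p = 0.132) and with the library labelled week 2 alone (0.56, adjusted p = 0.0618). The Col11a2 call ended without postnatal replicate 2 (adjusted p = 0.0813), without postnatal replicate 3 (0.0922) and without fetal replicate 2 (0.0791), as well as with plain CPM (0.417) and with the library labelled week 2 alone (0.346). Col27a1, a chain of thin fibrils known from cartilage, rose by 1.70 ± 0.18. Col11a1 was the only fibrillar gene called lower. It had 47.8, 41.6 and 30.0 scaled CPM in the postnatal libraries, against 66.3, 78.2 and 93.0 scaled CPM in the fetal libraries, with no overlap and a log2 fold change of -0.99 ± 0.19 (adjusted p = 0.00275). The remaining gene, Col24a1, had 2.11 ± 0.699 scaled CPM in postnatal and 1.65 ± 0.661 scaled CPM in fetal libraries and was not called.

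The basement membrane genes rose in 10 of 17 cases (58.8%, against 30.0% of all genes tested), with Lama1 lower and 6 not called. Their median log2 fold change (0.97) was near that of the fibrillar genes (0.90). The summed levels differed more between ages for the fibrillar genes. The 9 fibrillar genes summed to 6819, 11868 and 10066 scaled CPM in the postnatal libraries, against 2132, 2647 and 1845 scaled CPM in the fetal libraries. The 17 basement membrane genes summed to 3641, 5261 and 4417 scaled CPM after birth and to 2721, 2781 and 2372 scaled CPM before. As a percent of reads, which leaves out the further scaling, the basement membrane sums overlapped, at 0.246%, 0.543% and 0.438% in postnatal and 0.340%, 0.304% and 0.251% in fetal libraries. The fibrillar sums did not, at 0.461% to 1.22% in postnatal and 0.195% to 0.289% in fetal libraries. The fibrillar sum was thus 1.87, 2.26 and 2.28 times the basement membrane sum in the postnatal libraries, against 0.783, 0.952 and 0.778 times in the fetal libraries. The contrast rested largely on Col3a1. This gene made up 80.6% ± 0.892 of the fibrillar sum after birth and 64.0% ± 3.00 before (SD, n = 3 each), and without it the ratios were 0.383, 0.426 and 0.432 in postnatal libraries and 0.298, 0.310 and 0.291 in fetal libraries. These sums weight long and abundant transcripts and carry no test.

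**Figure D2:**
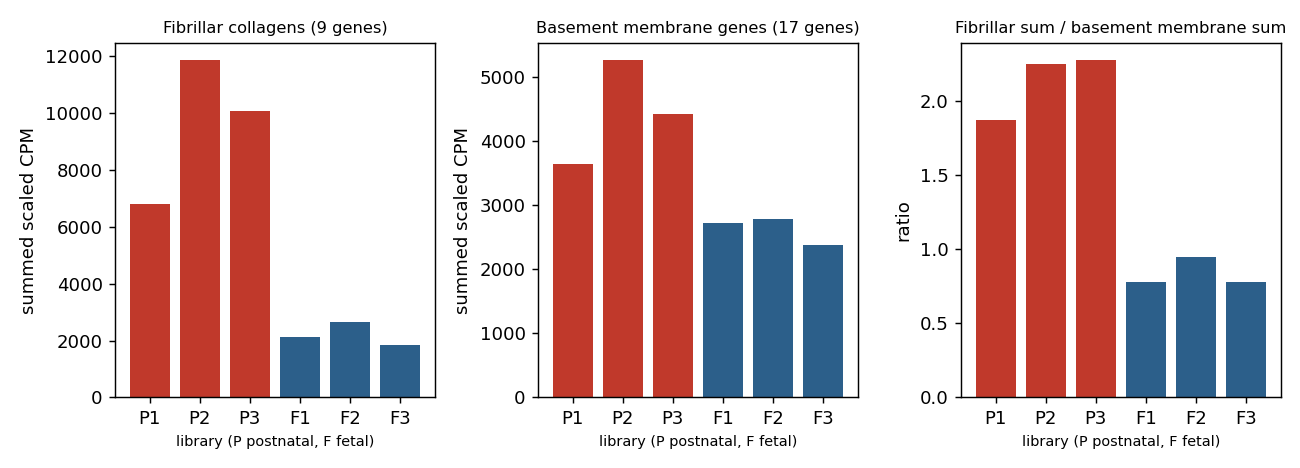
Summed scaled CPM of the 9 fibrillar collagen genes (left) and the 17 basement membrane genes (middle), and the ratio of the sums (right), in each postnatal (P1 to P3, red) and fetal (F1 to F3, blue) library. The ratio lies between 1.87 and 2.28 in the postnatal libraries and between 0.778 and 0.952 in the fetal libraries.

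Markers of connective tissue and vessel cells were higher in the same libraries. Of 16 mesenchyme markers, 13 rose, and their summed level was 2240.2 to 3408 scaled CPM in postnatal and 668 to 955 in fetal libraries. All 13 endothelial markers rose, summing to 864 to 1374 scaled CPM in postnatal and 299 to 472 in fetal libraries, and none of the markers on either list was at 0 in any library. Relative to the mesenchyme markers, the fibrillar sum was 3.04, 3.48 and 3.44 in the postnatal libraries and 2.29, 2.77 and 2.76 in the fetal ones. Relative to the fibroblast and pericyte receptor genes Pdgfra and Pdgfrb alone, it was 37.1 ± 0.843 in postnatal and 18.1 ± 1.45 in fetal libraries (SD, n = 3 each). The fibrillar sum was thus higher after birth in every library against either denominator. Both ratios rest largely on Col3a1, which made up 80.6% of that sum after birth and 64.0% before. They do not describe the other fibrillar genes. Without Col3a1, the sum relative to the mesenchyme markers was lower in every postnatal library than in any fetal one. Relative to Pdgfra and Pdgfrb, it remained higher in the postnatal libraries, but by much less. The median log2 fold change was 0.90 for the fibrillar genes and 1.23 for the mesenchyme markers. The basement membrane collagens summed to 1.99, 1.86 and 1.78 times the endothelial markers in postnatal libraries and to 3.02, 2.32 and 2.28 times in fetal libraries. The laminins summed to 1.42 ± 0.193 times these markers in postnatal and 3.83 ± 1.01 times in fetal libraries. Other cell markers moved as well, where 30.0% of all genes tested were called higher and 33.1% lower. Of 6 mesothelium markers, 4 rose and 1 fell (sums of 559 to 901 scaled CPM in postnatal and 171 to 245 in fetal libraries), of 8 duct markers 4 fell (615 to 948 in postnatal and 1139.9 to 1336 in fetal libraries), and all 10 proliferation markers fell (782 to 976 in postnatal and 3967 to 5252 in fetal libraries). The denominators above were chosen after the values were seen, and 5 of the mesenchyme markers (Dcn, Lum, Postn, Dpt and Mgp) are themselves matrix genes. The part of cell mixture in the matrix changes was not tested.

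**Figure D3:**
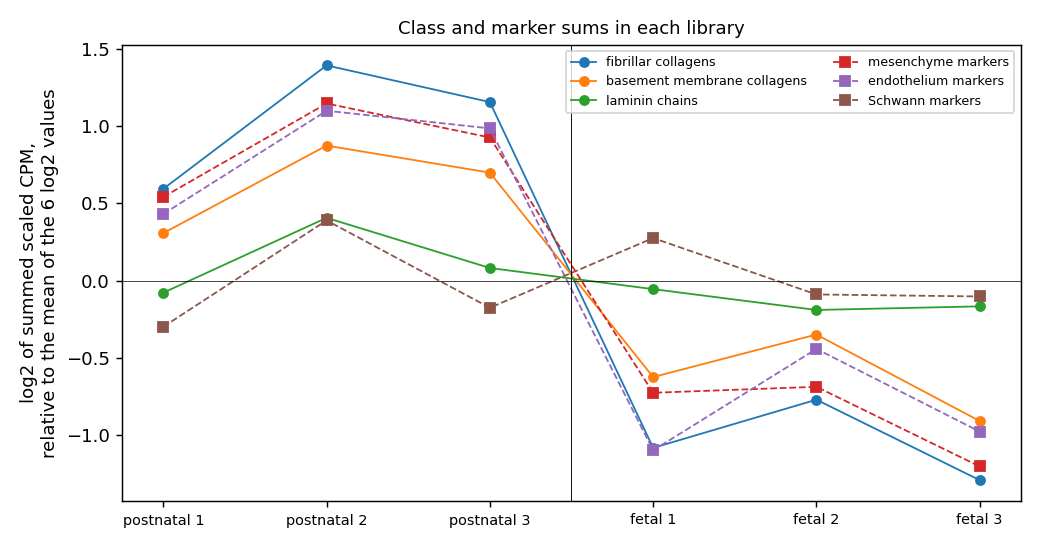
Log2 of the summed scaled CPM of 3 matrix classes (circles, solid lines) and 3 marker lists (squares, dashed lines) in each library, relative to the mean of the 6 log2 values. Fibrillar collagens, basement membrane collagens, mesenchyme markers and endothelium markers lie above 0 in every postnatal library and below 0 in every fetal library, whereas laminins and Schwann markers fall on both sides of 0 after birth, the Schwann sum being mostly Erbb3 in the fetal libraries.

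Type IV collagen, the net of the basement membrane, is made from chains encoded by genes that lie head to head in pairs. Of the 52 genes, 41 have a promoter window of 300 bases in the RefSeq table of the rat assembly GRCr8 (250 before to 50 after the annotated start), and the windows of only 2 pairs overlap, Col4a1 with Col4a2 and Col4a3 with Col4a4. The starts of Col4a1 and Col4a2 lie 77 bases apart on opposite strands of chromosome 16, so that the Col4a1 window holds both. Those of Col4a3 and Col4a4 lie 413 bases apart on chromosome 9, and their windows share 88 bases. The windows are shown because both genes of each pair moved by nearly the same amount. Capitals mark the GC box, GGGCGG, and the CCAAT box, both searched on either strand, which do not overlap here. In order, the windows are chr16:84885347-84885646 on the plus strand, chr9:91323740-91324039 on the plus strand and chr9:91323528-91323827 on the minus strand.
Col4a1: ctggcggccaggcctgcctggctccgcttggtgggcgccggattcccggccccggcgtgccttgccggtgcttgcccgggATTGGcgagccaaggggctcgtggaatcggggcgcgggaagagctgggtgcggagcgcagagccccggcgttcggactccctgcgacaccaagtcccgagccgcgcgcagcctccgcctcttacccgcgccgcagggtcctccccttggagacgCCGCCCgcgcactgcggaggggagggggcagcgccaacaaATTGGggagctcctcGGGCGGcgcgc
Col4a3: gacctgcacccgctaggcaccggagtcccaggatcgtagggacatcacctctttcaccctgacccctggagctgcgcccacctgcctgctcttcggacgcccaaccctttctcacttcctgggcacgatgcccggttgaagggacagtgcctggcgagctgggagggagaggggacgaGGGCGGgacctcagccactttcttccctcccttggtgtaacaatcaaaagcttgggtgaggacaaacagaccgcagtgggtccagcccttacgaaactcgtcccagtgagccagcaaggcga
Col4a4: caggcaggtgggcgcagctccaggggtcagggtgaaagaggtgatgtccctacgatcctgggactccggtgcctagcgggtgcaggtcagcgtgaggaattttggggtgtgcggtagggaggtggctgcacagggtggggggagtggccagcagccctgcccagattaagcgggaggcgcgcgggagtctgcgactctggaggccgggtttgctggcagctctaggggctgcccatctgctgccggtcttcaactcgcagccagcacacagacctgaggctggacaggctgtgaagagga

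The Col4a1 window held 2 GC boxes and 2 CCAAT boxes, that of Col4a3 held 1 GC box, and that of Col4a4 held none of these letters. GC boxes were present in 22 of the 41 windows of matrix genes (53.7%) and in 33.1% of all 33469 windows, and CCAAT boxes in 13 (31.7%) and 37.5%. The motif TATAAA, searched on either strand, was present in 3 of the 41 (7.32%) and in 14.2% of all windows. The matrix genes had 1 window each, whereas the windows of the whole table were not limited to 1 per gene or to the genes tested. These matches describe letters, not sites in use.

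The ubiquitous chain pair rose together. Col4a1 had 916, 1411 and 1249.9 scaled CPM in the postnatal libraries, against 491, 577 and 396 scaled CPM in the fetal libraries. Col4a2 had 602, 808 and 728 scaled CPM after birth and 285, 366 and 234 scaled CPM before. Neither gene overlapped between groups, and the log2 fold changes were 1.28 ± 0.22 and 1.28 ± 0.19 (adjusted p = 0.00141 and 0.000842). Their ratio within a library was 1.52, 1.75 and 1.72 in postnatal and 1.72, 1.57 and 1.69 in fetal libraries (difference -0.0039 on the log2 scale, exact permutation p = 0.9), so that the sets of ratios overlapped.

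The second pair also rose. Col4a3 and Col4a4, whose products form with that of Col4a5 a separate net known best from the kidney glomerulus, stood at low levels before birth. Col4a3 had 19.4, 40.1 and 31.3 scaled CPM in the postnatal libraries, against 1.01, 1.26 and 0.617 scaled CPM in the fetal libraries. Col4a4 had 48.0, 86.5 and 73.3 scaled CPM in the postnatal libraries, against 3.62, 3.80 and 1.57 scaled CPM in the fetal libraries. The mean levels were 31.5 and 23.1 times as high after birth, and the log2 fold changes were 3.95 ± 0.26 (adjusted p = 3.46e-05) and 4.15 ± 0.29 (adjusted p = 4.22e-05), the 2 largest rises of the 52 genes at a pseudocount of 1. That order depends on the pseudocount. At 0.1, Col4a3 had 4.82 and Col4a4 4.54, under Col28a1 with 5.05. At 5, Col4a4 had 3.19 but Col4a3 2.52, under Col6a6 with 2.93, Col14a1 with 2.67 and Lama2 with 2.53. The partner chain Col4a5 rose to 51.2 ± 4.45 scaled CPM in postnatal libraries against 34.2 ± 0.447 in fetal libraries (log2 fold change 0.57 ± 0.10, adjusted p = 0.00166). That call was absent with plain CPM (adjusted p = 0.452) and with the library labelled week 2 alone (0.0527). Col18a1, whose product carries the endostatin fragment, was not called, with 120.5 ± 29.9 scaled CPM in postnatal and 90.0 ± 17.9 scaled CPM in fetal libraries (SD, n = 3 each), although it was called higher without postnatal replicate 1 (0.60, adjusted p = 0.0171).

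Single laminin chains moved in both directions, while their sums overlapped between ages. The 8 chains summed to 1392, 1948 and 1556 scaled CPM in postnatal libraries and to 1415, 1288 and 1310 scaled CPM in fetal libraries. The sum of the basement membrane collagens was 1.24, 1.31 and 1.45 times the laminin sum in postnatal and 0.638, 0.847 and 0.565 times in fetal libraries. Of the 8 chains, 3 rose (37.5%), 1 fell (12.5%) and 4 were not called, with a median log2 fold change of 0.0030. The share that rose was near the 30.0% of all genes tested, and the share that fell was under their 33.1%.

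Among the alpha chains, Lama1, the chain of early embryonic basement membranes, had 91.6, 87.0 and 78.2 scaled CPM in the postnatal libraries, against 207, 182 and 219 scaled CPM in the fetal libraries. It was lower in every postnatal library than in any fetal one and fell by 1.23 ± 0.11 on the log2 scale (adjusted p = 9.09e-05). Lama2, the alpha chain of muscle and peripheral nerve, had 132, 206 and 157 scaled CPM after birth and 27.7, 30.4 and 16.0 scaled CPM before, a rise of 2.72 ± 0.25 (adjusted p = 0.000109). Lama4, the alpha chain typical of endothelium, rose by 0.97 ± 0.20, to 232 ± 55.1 scaled CPM in postnatal against 117 ± 18.7 in fetal libraries. Its call was absent with plain CPM (0.62, adjusted p = 0.112) and with the library labelled week 2 alone (0.57, adjusted p = 0.0541). Within a library the ratio of Lama2 to Lama1 was 1.44, 2.36 and 2.01 in postnatal and 0.134, 0.167 and 0.0729 in fetal libraries, a difference of 4.01 on the log2 scale (exact permutation p = 0.1, the smallest possible; adjusted 0.14).

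Of the beta chains, 1 rose. Lamb2, the beta chain of mature vessels, glomeruli and nerve-muscle junctions, had 183, 288 and 217 scaled CPM in the postnatal libraries, against 69.9, 72.6 and 59.1 scaled CPM in the fetal libraries (log2 fold change 1.74 ± 0.17, adjusted p = 0.000143). Lamb1, the widespread beta chain, had 361, 449 and 367 scaled CPM after birth and 443, 396 and 457 scaled CPM before, so that the groups overlapped and no call was made (adjusted p = 0.376). The ratio of Lamb2 to Lamb1 was 0.505, 0.641 and 0.593 in the postnatal libraries and 0.158, 0.183 and 0.129 in the fetal libraries, a difference of 1.89 on the log2 scale (exact permutation p = 0.1; adjusted 0.14). Lamc1, the gamma chain shared by most laminins, overlapped as well, with 416, 606 and 469 scaled CPM in postnatal and 513, 431 and 417 scaled CPM in fetal libraries (adjusted p = 0.562). The epithelial chain Lamb3 was not called, with 6.66 ± 1.46 scaled CPM in postnatal and 7.25 ± 1.18 scaled CPM in fetal libraries (SD, n = 3 each; adjusted p = 0.614).

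**Figure D4:**
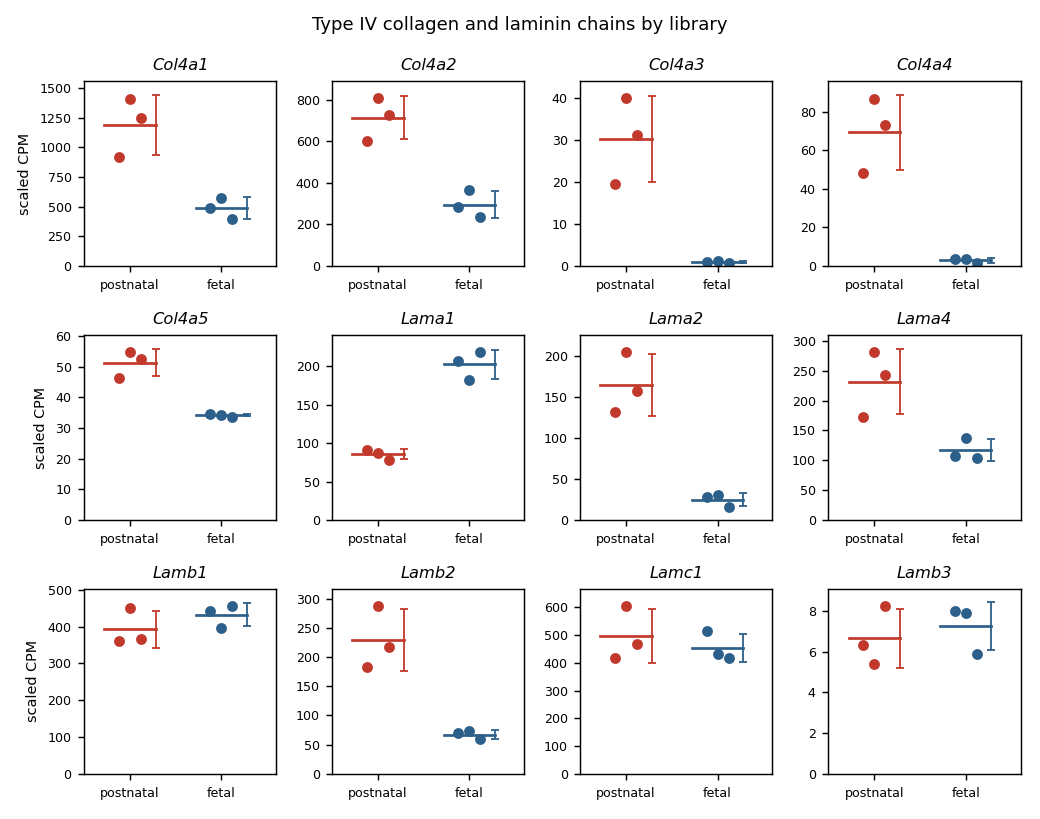
Scaled CPM of 5 type IV collagen chains and 7 laminin chains in the 3 postnatal (red, left) and 3 fetal (blue, right) libraries; points are libraries, horizontal lines means and bars the SD. Col4a3, Col4a4, Lama2 and Lamb2 are higher and Lama1 is lower in every postnatal library, while Lamb1 and Lamc1 overlap between groups.

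Of the linkers, both nidogens rose and agrin did not. Nid1 had 246, 408 and 332 scaled CPM in the postnatal libraries, against 146, 173 and 111 scaled CPM in the fetal libraries, and Nid2 had 120.03, 158 and 125 scaled CPM in the postnatal and 59.2, 67.9 and 53.8 scaled CPM in the fetal libraries. The nidogens bridge laminin and type IV collagen, and their log2 fold changes were alike, at 1.18 ± 0.22 (adjusted p = 0.00233) and 1.14 ± 0.14 (adjusted p = 0.000326). With plain CPM the Nid1 call was lost (adjusted p = 0.0522). Their ratio overlapped between groups, at 2.05, 2.58 and 2.65 in postnatal and 2.46, 2.55 and 2.07 in fetal libraries (exact permutation p = 0.7). Agrn, encoding a heparan sulfate proteoglycan of basement membranes, had 162, 196 and 146 scaled CPM after birth and 199.5, 159 and 157 scaled CPM before (adjusted p = 0.841); its sign changed with the scaling.

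Among the glycoproteins, Sparc, a collagen-binding protein of remodelling matrix, had 1134, 1843 and 1629.8 scaled CPM in the postnatal libraries, against 379, 469 and 384 scaled CPM in the fetal libraries. It rose by 1.88 ± 0.21 (adjusted p = 0.000234). Fbn1, the main protein of the microfibrils on which elastic fibres form, had 351, 601 and 506 scaled CPM after birth and 177, 236 and 141 scaled CPM before, a rise of 1.39 ± 0.24 (adjusted p = 0.00178). Fbn2, the fibrillin used mainly in fetal tissue, had 62.2, 73.2 and 46.4 scaled CPM in postnatal and 80.0, 73.1 and 60.5 scaled CPM in fetal libraries and was not called (adjusted p = 0.264). The ratio of Fbn1 to Fbn2 was accordingly higher in all postnatal libraries, at 5.64, 8.20 and 10.9 against 2.21, 3.23 and 2.33 in the fetal libraries (exact permutation p = 0.1; adjusted 0.14). Fn1, encoding the adhesive glycoprotein fibronectin, varied widely between replicates. It had 75.7, 184 and 154 scaled CPM in the postnatal libraries and 123, 106 and 47.5 scaled CPM in the fetal libraries (0.59 ± 0.42, adjusted p = 0.249), and was called higher without postnatal replicate 1 (0.97, adjusted p = 0.0464).

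The 22 other collagens held both the strongest fall and several steep rises, with 14 called higher (63.6%), 4 lower (18.2%) and 4 not called. Of all genes tested, 30.0% were called higher and 33.1% lower. Col6a6, an alternative chain of the beaded type VI filaments, had 217, 327 and 236 scaled CPM in the postnatal libraries, against 25.7, 34.8 and 27.7 scaled CPM in the fetal libraries (3.09 ± 0.18, adjusted p = 2.18e-05). Col14a1, a fibril-associated collagen, had 280.1, 494 and 469 scaled CPM after birth and 68.0, 79.6 and 37.0 scaled CPM before (2.76 ± 0.32, adjusted p = 0.000259). The basic type VI chains Col6a1 and Col6a2 rose by 1.51 ± 0.18 and 1.26 ± 0.18, and the further alternative chain Col6a5 by 2.35 ± 0.37. Col6a4, with 1.64 ± 0.0627 scaled CPM in postnatal and 2.49 ± 1.65 in fetal libraries, was not called.

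Col28a1, known in mouse from Schwann cells of peripheral nerve, had 7.69, 21.3 and 9.46 scaled CPM in the postnatal libraries, against 0.123, 0.218 and 0.524 scaled CPM in the fetal libraries (adjusted p = 0.000165). Its log2 fold change of 3.31 ± 0.34 depends on the pseudocount, being 5.05 for 0.1 and 1.68 for 5. The 7 Schwann cell markers measured did not move as one: 4 rose, Sox10 and Cdh19 among them, Erbb3 and Gfap fell, and S100b was not called. Their summed level overlapped between groups, at 54.4, 87.7 and 59.3 scaled CPM in postnatal and 81.1, 62.9 and 62.4 scaled CPM in fetal libraries. Without Erbb3, left out after the values were seen, the other 6 summed to 26.8, 57.8 and 37.7 scaled CPM in postnatal and 13.4, 15.2 and 14.1 scaled CPM in fetal libraries, with no overlap. Postnatal replicate 2 was the highest library for Col28a1 and for both sums. The part of nerve cells in the rise of Col28a1 was not tested.

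The chains of type IX collagen, a trimer known from cartilage fibrils, went in opposite directions. Col9a1 had 18.0, 24.7 and 31.2 scaled CPM in the postnatal libraries, against 8.38, 8.01 and 6.17 scaled CPM in the fetal libraries, and rose by 1.57 ± 0.21 (adjusted p = 0.000493). Col9a2 had 12.7, 11.5 and 6.76 scaled CPM after birth and 21.7, 16.1 and 25.2 scaled CPM before, and fell by 0.98 ± 0.25 (adjusted p = 0.0099, or 0.0770 with the library labelled week 2 alone). Col9a3 had 14.8, 15.7 and 7.31 scaled CPM in postnatal and 24.6, 21.3 and 33.2 scaled CPM in fetal libraries, and fell by 1.05 ± 0.29 (adjusted p = 0.0131, or 0.0539 without fetal replicate 3). None of the 3 genes overlapped between groups. Of these chains Col9a2 and Col9a3 were lowest in postnatal replicate 3, where Col9a1 was highest.

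Col26a1, a short collagen, fell to near 0 after birth. It had 0.152, 1.62 and 0 scaled CPM in the postnatal libraries, or 3, 47 and 0 reads, against 10.2, 11.8 and 11.7 scaled CPM in the fetal libraries, or 331, 486 and 381 reads. The log2 fold change was -3.08 ± 0.34 (adjusted p = 0.000225), and -5.01 or -1.55 for pseudocounts of 0.1 and 5. Col25a1, a membrane collagen of neurons, fell too, to 1.12 ± 0.239 scaled CPM in postnatal against 2.60 ± 0.564 in fetal libraries (-0.76 ± 0.18), but not with the library labelled week 2 alone (adjusted p = 0.0684). The remaining risers ran from Col17a1 (0.52 ± 0.18) to Col20a1 (2.15 ± 0.19), and the call of Col17a1 ended under 8 of the 17 alternatives that tested it. Plain CPM also ended the calls of Col7a1, Col13a1, Col16a1, Col19a1 and Col22a1. Col8a1, Col8a2, Col6a4 and Col23a1 were not called, although Col8a1 was called higher under 7 of 18 alternatives and Col8a2 lower under 2.

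**Figure D5:**
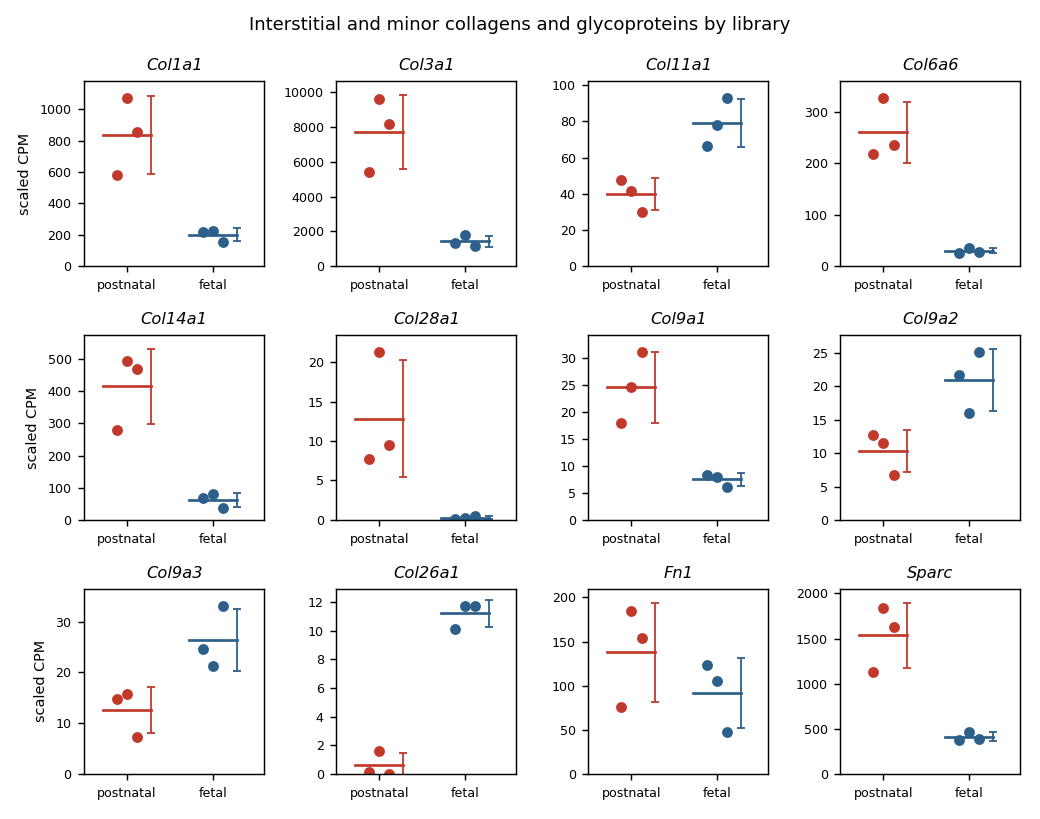
Scaled CPM of 10 collagen genes, Fn1 and Sparc in the 3 postnatal (red, left) and 3 fetal (blue, right) libraries; points are libraries, horizontal lines means and bars the SD (the lower bar of Col26a1 is drawn to 0). Col9a1 is higher and Col9a2 and Col9a3 are lower in every postnatal library, Col26a1 is near 0 after birth, and Fn1 overlaps between groups.

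Some neighbouring genes moved alike, though 32 of the 52 matrix genes (61.5%) rose in any case. Neighbours were not compared with other pairs of these genes. In the GRCr8 gene order, 8 pairs of matrix genes follow each other with no other protein-coding gene between, and in 6 of these both rose (Col4a1 with Col4a2, Col4a3 with Col4a4, Col6a1 with Col6a2, Col6a5 with Col6a6, Col9a1 with Col19a1, and Col3a1 with Col5a2). At a pseudocount of 1, the sizes were near each other in the head-to-head pairs. In contrast, Col3a1 (2.43) and Col5a2 (0.90) differed, as did Col6a5 (2.35) and its other neighbour Col6a4 (-0.29, not called).

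The order of libraries was largely shared among the genes. Among the 32 risers, postnatal replicate 2 was the highest postnatal library for 24 and postnatal replicate 1 the lowest for 26. Among fetal libraries, replicate 2 was the highest for 22 and replicate 3 the lowest for 25. The mesenchyme marker sum had the same order, at 2240.2, 3408 and 2925 scaled CPM in postnatal and 930.1, 955 and 668 scaled CPM in fetal replicates 1, 2 and 3. The 6 genes that fell did not follow it, and 5 of them were lowest in postnatal replicate 3. Postnatal replicate 1 is also the library labelled week 2 and had the largest acinar share (48.3% of reads), and these cannot be told apart. The order of libraries over all genes tested was not counted.

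Of 25 genes of collagen synthesis, 9 rose (36.0%), 5 fell and 11 were not called (median 0.21), where 30.0% of all genes tested were called higher and 33.1% lower. Cross-linking enzymes of the lysyl oxidase family mostly rose, with Lox at 37.5, 62.4 and 50.1 scaled CPM in postnatal and 11.7, 15.0 and 9.90 scaled CPM in fetal libraries (1.94 ± 0.21), Loxl1 up by 1.83 ± 0.19 and Loxl2 by 1.26 ± 0.18, while Loxl4 fell by 1.36 ± 0.15. The endoplasmic reticulum chaperone of procollagen, Serpinh1, had 359.9, 332 and 343 scaled CPM in the postnatal libraries, against 533, 568 and 616 scaled CPM in the fetal libraries, and fell by 0.73 ± 0.12 (adjusted p = 0.00111). Thus it was lower in every postnatal library, where the collagen sum was higher. Ppib, a prolyl isomerase of the same compartment, fell by 0.83 ± 0.22, P4ha3, a prolyl hydroxylase subunit, by 1.38 ± 0.18 and the lysyl hydroxylase Plod2 by 0.34 ± 0.10. P4ha2, another prolyl hydroxylase subunit, rose by 1.05 ± 0.11, the lysyl hydroxylases Plod1 and Plod3 by 0.71 ± 0.18 and 0.32 ± 0.08, and P3h3, of the prolyl 3-hydroxylase family, by 0.87 ± 0.15. Tll1 and Pcolce, a procollagen-cleaving protease and an enhancer of such cleavage, rose by 2.42 ± 0.27 and 1.39 ± 0.17. Alternative settings were compared for the 52 matrix genes only. The calls of synthesis, partner and marker genes were therefore not checked against the scaling or the libraries left out.

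Partners of the interstitial matrix rose in 21 of 26 cases (median 2.05), led by Ltbp2 (4.26 ± 0.48) and by the elastin gene Eln, with 1085, 1857 and 1742 scaled CPM in postnatal and 67.8, 165 and 63.2 scaled CPM in fetal libraries (4.08 ± 0.38). Vcan, a large proteoglycan of embryonic matrix, was the gene that fell, to 32.9 ± 3.17 scaled CPM in postnatal against 134 ± 7.75 in fetal libraries, 4.07 times lower by the means (adjusted p = 1.84e-05). Partners and receptors of the basement membrane rose in 12 of 19 cases (63.2%) and fell in 2 (10.5%), with a median of 0.84. Of all genes tested, 30.0% were called higher and 33.1% lower. The laminin receptor genes Itga7 and Bcam rose by 3.81 ± 0.28 and 1.98 ± 0.16, and the integrin chains Itga3 and Itgb4 by 1.56 ± 0.17 and 0.89 ± 0.18. Itga6, an integrin chain of epithelial cells, fell by 0.55 ± 0.14 and Smoc2 by 0.87 ± 0.15. Dcn, Lum, Postn and Dpt stand both among the interstitial partners and among the mesenchyme markers.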

How the data were processed

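The authors deposited 1 table of a normalized signal per gene for 6 libraries, with no unit in its header. The submitters' processing notes name TopHat2 2.0.8b and edgeR 3.30.3 but no role for either. Build, annotation and counting tool: not given in the sources used here. The kit is stranded and depletes ribosomal RNA, per the labels' protocols. Every deposited value is a whole number of reads times 1 constant per library (100% whole within 0.001 reads), read here as CPM with a scaling factor for each library, whose method is not stated. A row with no gene name (at most 3.19e-05% of a library) was left out of the tests. The main test was limma 3.58.1 (R 4.3.3, trend, two-sided) on log2(value + 1), over genes with at least 1 in at least 3 libraries, after a check on simulated reads. Pairs of genes were compared by an exact permutation test in SciPy 1.17.1. No replicates were alike within counting error (chi-square over its degrees of freedom, 45.6 to 370). Alternatives were pseudocounts of 0.1 and 5, both filters, 3 scalings, a replicate block, libraries left out, and count tests on the recovered reads: DESeq2 1.42.0 called 4206 genes higher and 4160 lower, and edgeR 4.0.16 called 4060 and 4068. Genes described with values for each library were a fixed set and the 6 largest rises and up to 6 largest falls with a mean of at least 10. Col9a1, Lox, Serpinh1 and Eln are described in this way outside that rule. The genes and lists were chosen with earlier results of these data known. Without a description of the counting, overlapping or antisense genes may share reads. Values of 1 laminin chain and of some marker genes are not reported here.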

Additional observations from a re-analysis of the deposited data

How the results depend on the processing

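Of the 38 matrix genes called, 24 (21 higher, 3 lower) kept their direction and call under every one of the 18 alternatives that gave a value. Leaving out 1 library at a time gave 28 to 34 genes higher and 6 to 7 lower, 5 to 7 fibrillar genes higher and 1 lower, and 10 to 11 basement membrane genes higher and 1 to 2 lower. Plain CPM gave 21 genes higher and 2 basement membrane genes lower, and moved the median of all genes to -0.36; the cause was not tested. Leaving out fetal replicate 2 and postnatal replicate 1 together also gave 2 basement membrane genes lower. Replicate numbers did not pair the libraries (correlations of -0.21, 0.10 and -0.25 between same-numbered deviations); with the replicate number as a block, 31 genes were higher and 7 lower, 2 of them basement membrane genes. Without Col3a1 the fibrillar over basement membrane ratio averaged 0.414 in postnatal and 0.300 in fetal libraries, against 2.14 and 0.838 with it, and 2.06 to 2.27 and 0.780 to 0.868 with 1 library left out.

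Signs that changed all belong to genes or pairs without a call. After rescaling without the 20 highest genes, which moved the median of all genes to 0.20, Agrn was 0.20, Lamb1 0.097 and Lamb3 0.095. With plain CPM Lamc1 was -0.23. With the library labelled week 2 alone, Col24a1 was -0.069, Fn1 -0.17 and Lamc1 -0.12. Agrn was 0.0067 with edgeR and 0.0072 with DESeq2. With 1 library left out, Agrn ran from -0.15 to 0.075, Lamb3 from -0.26 to 0.0080, Lamc1 from -0.033 to 0.24 and Col6a4 from -0.61 to 0.062. The log2 ratio difference of Col4a1 over Col4a2 ran from -0.043 to 0.058 and that of Nid1 over Nid2 from -0.057 to 0.15. The depth limits Col26a1 after birth, where 2 of 3 libraries were at or under 3 reads.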
